A study of Mus musculus with 10 samples.

Results

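The peroxiredoxins and the thioredoxin system were followed in mouse ovaries as 10 genes, taken from the deposited table by their symbols: the peroxiredoxins Prdx1, Prdx2, Prdx3, Prdx4, Prdx5 and Prdx6, the thioredoxins Txn1 and Txn2, and the thioredoxin reductases Txnrd1 and Txnrd2. All 10 were found among the 55487 genes of the table, and all 10 were among the 18956 genes that passed a filter on low counts and were tested. RNA-seq had been done on whole ovaries of female C57BL/6J mice, with a library for each ovary. The Control group held 4 ovaries of mice aged 8 weeks, the Aged group 3 ovaries and the Aged+CF group 3 ovaries of mice aged 11 months by the labels and 10 months by the methods of the study. Aged+CF mice had been given CEFFE, a cell-free protein extract of fat tissue, into the tail vein, 200 μL at 3 μg/μL every 2 days for 2 weeks, and by the methods Control and Aged mice had been given saline in its place. By the labels, mice of every group had also had 10 IU of PMSG, a gonadotropin that drives follicle growth, 48 h before the ovaries were taken, so no group shows the unstimulated ovary. Aged vs Control addressed the difference with age, and Aged+CF vs Aged the difference with CEFFE in aged mice. Both comparisons used the same 3 Aged ovaries.

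Peroxiredoxins remove hydrogen peroxide and organic peroxides through a cysteine that is oxidized in each cycle. In the 2-Cys enzymes the oxidized cysteine is trapped as a disulfide, which thioredoxin reduces, and thioredoxin is in turn reduced by thioredoxin reductase with electrons from NADPH. Thioredoxin also serves ribonucleotide reductase and the methionine sulfoxide reductases, and in the ovary peroxide is formed where steroid hormones are made and around ovulation.

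The 10 genes are held together by their redox-active residues, and a coding stretch with such a residue is shown for each. The stretches alone do not give the roles by which the results are ordered. Each is 24 bases of the longest principal transcript, written 5′ to 3′ (GENCODE M21 on GRCm38). In the peroxiredoxins, the capitals mark the codon of the peroxide-reacting cysteine.
Prdx1: cctcttgactttacttttgtgTGT
Prdx2: ccactggacttcacttttgttTGC
Prdx3: cctttggatttcacatttgtgTGT
Prdx4: ccactggatttcacctttgtgTGT
Prdx5: cctggggcatttacacctggcTGT
Prdx6: ccacgggactttaccccagtgTGC

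In the thioredoxins, the capitals mark the codons of the paired cysteines that carry the disulfide. In the reductases, they mark the cysteine codon and the TGA codon next to it, which is read as selenocysteine and not as a stop.
Txn1: acgtggTGTggacctTGCaaaatg
Txn2: cagtggTGTggccccTGCaagatc
Txnrd1: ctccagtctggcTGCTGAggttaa
Txnrd2: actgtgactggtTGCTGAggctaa

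The cysteine codon is codon 52 in Prdx1 (chr4:116691802-116691825, + strand, exon 3), 51 in Prdx2 (chr8:84970462-84970485, + strand, exon 3), 96 in Prdx5 (chr19:6907988-6908011, − strand, exon 2) and 47 in Prdx6 (chr1:161247368-161247391, − strand, exon 2). In Prdx3 (codon 109, chr19:60870127-60871430, − strand, exons 3 and 4) and Prdx4 (codon 127, chrX:155332460-155334848, − strand, exons 2 and 3), the stretch lies across an exon junction, so its coordinates include an intron. The cysteine codons are 32 and 35 in Txn1 (chr4:57951815-57951838, − strand, exon 2) and 90 and 93 in Txn2 (chr15:77924645-77927693, − strand, across exons 1 and 2). The selenocysteine codon is the last but one before the stop in both reductases, codon 498 in Txnrd1 (chr10:82896022-82896045, + strand, exon 14) and 526 in Txnrd2 (chr16:18477757-18477780, + strand, exon 17).

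The libraries held 15761789 to 21318254 counted reads each, and the 10 genes had between 333 (Txnrd2) and 15804 (Prdx1) counts in an ovary. The Aged ovaries differed more among themselves than the others did, with a biological coefficient of variation of 0.378 in Aged, 0.209 in Control and 0.193 in Aged+CF. Aged ovary 34 stood apart from the other Aged ovaries: its summed level of 6 plasma cell markers was 2647 CPM (counts scaled to the library size by TMM), against at most 242 CPM in any other ovary, and its summed level of 8 oocyte markers was 11.0 CPM, against 80.5 and 75.6 CPM in Aged 31 and 33. The results are therefore also given without it. The markers of the ovary itself were present in the Control ovaries, with 282 to 389 CPM summed over 8 oocyte markers and 3653 to 6355 CPM over 6 granulosa cell markers.

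Levels of different genes were compared per length, as FPKM. By the deposited FPKM, Txn1 had the highest level in Control, 137 ± 21.4 (SD, n = 4), followed by Prdx3 (119 ± 13.0), Prdx1 (101 ± 7.14) and Prdx2 (57.5 ± 2.05). Lower levels followed in Prdx4 (23.9 ± 2.72), Prdx5 (18.3 ± 3.33), Prdx6 (14.4 ± 0.994), Txnrd1 (13.6 ± 0.584), Txn2 (8.27 ± 0.485) and Txnrd2 (3.45 ± 0.144). Neighbours whose means ± SD overlapped were Txn1 with Prdx3, Prdx3 with Prdx1, Prdx4 with Prdx5, Prdx5 with Prdx6, and Prdx6 with Txnrd1. The cytosolic thioredoxin and its cytosolic reductase thus had higher levels per length than the mitochondrial forms of the same proteins, Txn2 and Txnrd2.

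The order of these levels depended on the length used. The gene length behind the deposited FPKM, obtained from the counts, was between 1 and 3.83 times the length of the longest principal transcript, being equal to it in Prdx3 and Txn1 and longest against it in Prdx6 (9135 bases against 2387). With the transcript length, an alternative added after the data were seen, Prdx2 (188 ± 6.71) and Prdx1 (180 ± 12.7) came first in Control, before Txn1 (137 ± 21.4) and Prdx3 (119 ± 13.0). Prdx6 then stood at 55.0 ± 3.81, beside Prdx4 (59.3 ± 6.77) and Prdx5 (58.0 ± 10.6), and Txnrd2 was lowest by either length (8.70 ± 0.364 by transcript length). Comparisons between groups are of 1 gene with itself and do not depend on the length.

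**Figure D1:**
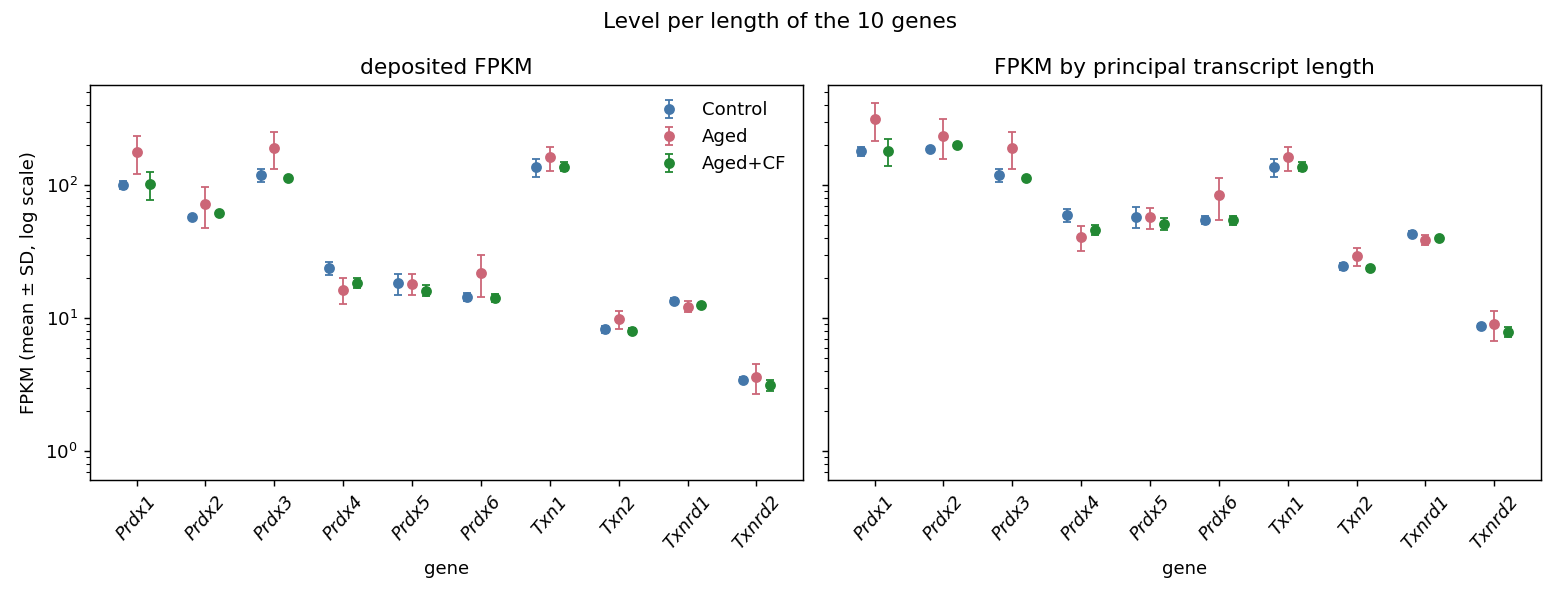
FPKM of the 10 genes on a log axis, by the deposited values (left) and by the length of the longest principal transcript (right), as mean ± SD of 4 Control, 3 Aged and 3 Aged+CF ovaries. Txn1 and Prdx3 have the same values in both panels, while Prdx2 rises from 57.5 to 188 and Prdx6 from 14.4 to 55.0 in Control.

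In Aged ovaries, the RNA of 3 peroxiredoxins was higher than in Control: Prdx1 by 1.95-fold, Prdx3 by 1.79-fold and Prdx6 by 1.71-fold. These are a cytosolic 2-Cys enzyme, the mitochondrial 2-Cys enzyme and the 1-Cys enzyme, which is reduced with glutathione in place of thioredoxin. No thioredoxin or thioredoxin reductase passed the test, and no member was called lower. Of the 10 genes, 3 were thus called, at adjusted p (Benjamini-Hochberg over all genes tested) under 0.05 in edgeR's quasi-likelihood F test. Of all genes tested, 15.4% were called in this comparison, 7.14% as higher and 8.3% as lower. The thresholds in the series text (1.5-fold and an unadjusted p under 0.05) were passed by the same 3 genes, and by 18.2% of all genes. In whole ovaries, more RNA per cell and more cells of a type that is rich in that RNA cannot be told apart.

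Prdx1 (ENSMUSG00000028691, chr4:116685544-116700822) makes a cytosolic 2-Cys peroxiredoxin that is abundant in many cells. It stood at 357, 417, 416 and 409 CPM in Control 31, 32, 33 and 34, and at 711, 1115 and 512 CPM in Aged 31, 33 and 34. Every Aged ovary was above every Control ovary, with Aged 33 highest. The log2 fold change was 0.96 (standard error, SE, 0.25; edgeR adjusted p = 0.0288). Prdx1 was the only one of the 10 genes whose Aged and Control ovaries did not overlap, against 11.8% of all genes tested that did not overlap and were higher in Aged.

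Prdx2 (ENSMUSG00000005161, chr8:84969587-84974834) makes the cytosolic 2-Cys enzyme that is plentiful in red blood cells. In Control it stood at 282, 309.7, 295 and 286 CPM, and in Aged at 410.4, 576 and 245 CPM. Aged 31 and 33 were above all Control ovaries and Aged 34 was below them all, so the groups overlapped. With a log2 fold change of 0.48 (SE 0.22), Prdx2 did not pass the test (edgeR adjusted p = 0.166). The Prdx2 gene overlaps Rnaseh2a and Junb on the opposite strand, and a processed copy, Prdx2-ps1, held 126 to 318 counts per ovary, so reads may be shared with these genes. The strand setting of the counting is not given in the sources used here.

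Prdx3 (ENSMUSG00000024997, chr19:60864051-60874556), the mitochondrial 2-Cys enzyme, works with Txn2 and Txnrd2. It stood at 163, 153.5, 192.5 and 173 CPM in Control and at 313, 414 and 186.5 CPM in Aged. Aged 34 lay within the Control range, and the other Aged ovaries lay well above it. The difference was 0.84 on the log2 scale (SE 0.21, edgeR adjusted p = 0.0281).

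Prdx6 (ENSMUSG00000026701, chr1:161240112-161251219), the 1-Cys enzyme, also acts on phospholipid peroxides. It stood at 128, 125, 137 and 118 CPM in Control and at 238, 290.2 and 121 CPM in Aged. As for Prdx3, Aged 34 was at the Control level. Its log2 fold change was 0.77 (SE 0.23), and the edgeR adjusted p of 0.0487 lay just under the threshold.

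Prdx4 (ENSMUSG00000025289, chrX:155323918-155340754) and Prdx5 (ENSMUSG00000024953, chr19:6906697-6910106) did not pass the test. Prdx4, the peroxiredoxin of the endoplasmic reticulum, stood at 48.6, 62.0, 53.8 and 63.0 CPM in Control and at 38.3, 57.9 and 33.5 CPM in Aged (log2 fold change -0.40, SE 0.18, edgeR adjusted p = 0.169). It was the only peroxiredoxin with a lower mean in Aged. Prdx5, an atypical 2-Cys enzyme found in mitochondria, peroxisomes and cytosol, stood at 57.8, 76.4, 62.2 and 86.9 CPM in Control and at 66.0, 101 and 66.3 CPM in Aged. Its groups overlapped, with a log2 fold change of 0.13 (SE 0.19, edgeR adjusted p = 0.68). Prdx5 overlaps Trmt112 on the opposite strand.

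Txn1 (ENSMUSG00000028367, chr4:57943373-57956411), the cytosolic thioredoxin, stood at 107, 150.5, 144 and 156 CPM in Control and at 137, 233 and 175 CPM in Aged. Aged 33 and 34 were above all Control ovaries and Aged 31 was among them. The log2 fold change of 0.38 (SE 0.18) did not pass the test (edgeR adjusted p = 0.182). Txn2 (ENSMUSG00000005354, chr15:77915047-77929006), the mitochondrial thioredoxin, stood at 45.9, 53.3, 46.4 and 49.1 CPM in Control and at 51.0, 70.8 and 68.3 CPM in Aged. For Txn2 Aged 34 was close to Aged 33, unlike for the peroxiredoxins. Its log2 fold change of 0.38 (SE 0.12) had an edgeR adjusted p of 0.0562 and was not called.

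Txnrd1 (ENSMUSG00000020250, chr10:82833951-82897712), the cytosolic reductase, stood at 155, 149, 139 and 146 CPM in Control and at 134, 174.5 and 129.9 CPM in Aged. Aged 31 and 34 were below all Control ovaries and Aged 33 was above them. Its log2 fold change was -0.01 with a 95% confidence interval from -0.25 to 0.23 (edgeR adjusted p = 0.961). Txnrd2 (ENSMUSG00000075704, chr16:18426384-18479073), the mitochondrial reductase, stood at 23.8, 24.8, 25.1 and 23.1 CPM in Control and at 30.1, 35.1 and 18.4 CPM in Aged. The pattern across the Aged ovaries was that of Prdx2, with Aged 34 below all Control ovaries, and the log2 fold change was 0.20 (SE 0.19, edgeR adjusted p = 0.506). Txnrd1 overlaps Eid3 on the same strand over 1305 bases.

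**Figure D2:**
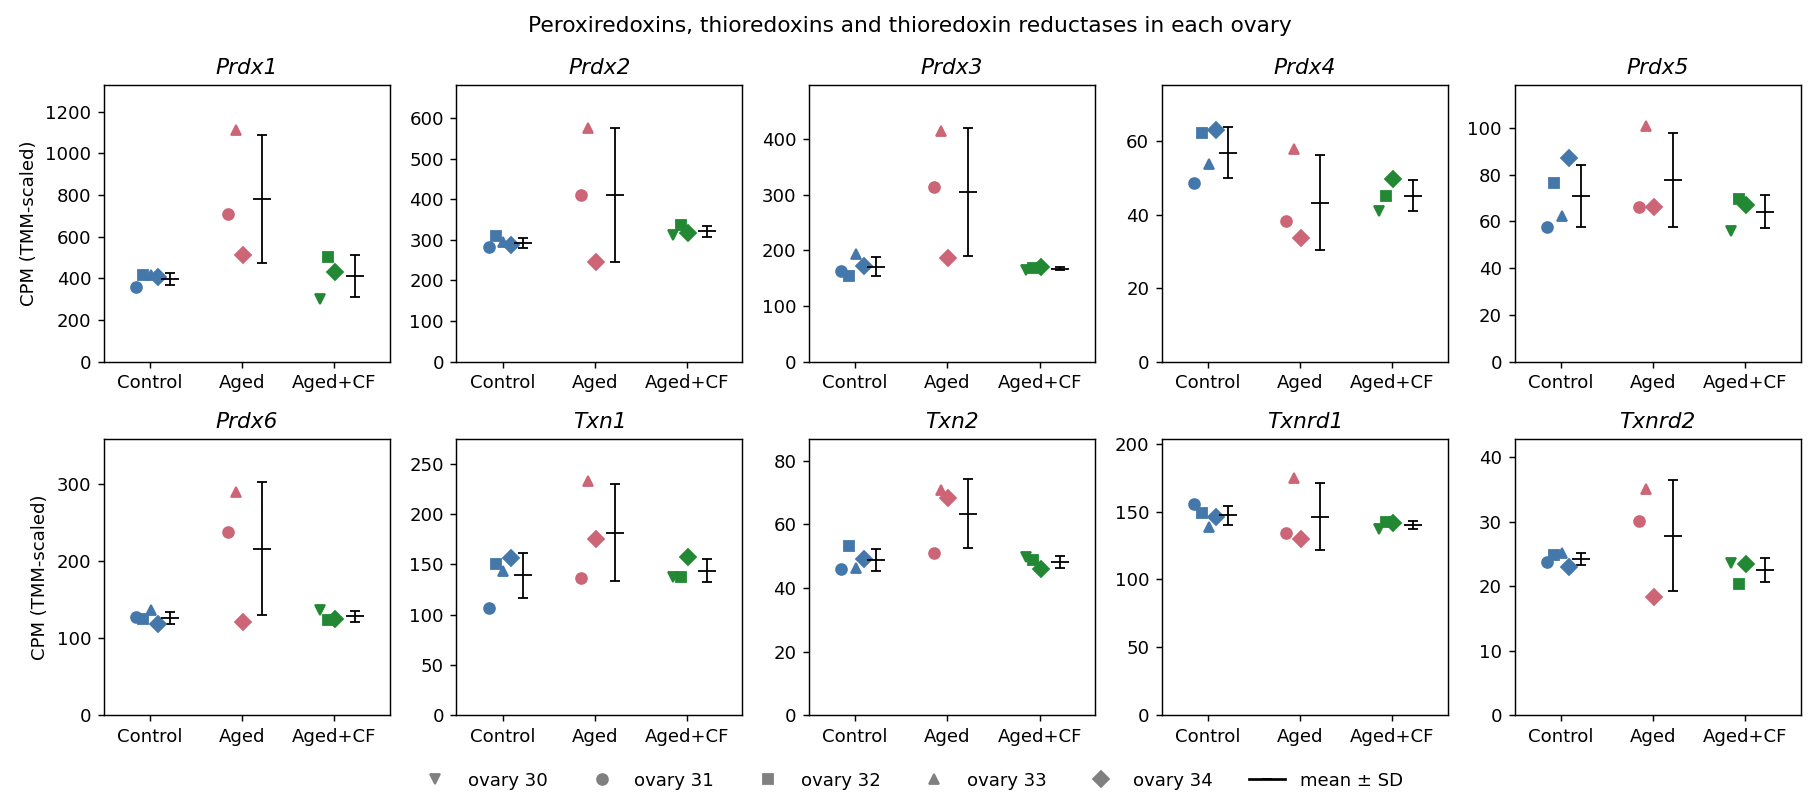
TMM-scaled CPM of each gene in each of the 10 ovaries, with symbols for the replicate numbers and the mean ± SD beside each group. In Aged, ovary 33 is the highest for every gene, and ovary 34 lies below the Control range for Prdx2, Prdx4, Txnrd1 and Txnrd2. The TMM factor of Aged 33 was 0.871, against 0.970 to 1.05 in the other ovaries, and a lower factor raises the CPM. By the deposited FPKM, which has no TMM scaling, Txn2 was higher in Aged 34 (11.2) than in Aged 33 (10.1).

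The median log2 fold change of the 10 genes in Aged vs Control was 0.38, against -0.001 over all genes tested, and 8 of the 10 had a higher mean in Aged. Summed over the 6 peroxiredoxins, the level was 1035 to 1156 CPM in Control and 1777, 2553 and 1164 CPM in Aged 31, 33 and 34. Prdx1 made up 34.4 to 36.5% of these peroxiredoxin reads in Control and 40.02 to 43.96% in Aged. Its share was 29.9, 40.3 and 37.3% in Aged+CF 30, 32 and 34.

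The calls depended on single ovaries. Without Aged 34, 5 of the 10 genes were called, where 22.6% of all genes were: Prdx1 (log2 fold change 1.23, edgeR adjusted p = 0.00547), Prdx2 (0.79, adjusted p = 0.0044), Prdx3 (1.13, adjusted p = 0.00176), Prdx6 (1.10, adjusted p = 0.00136) and Txnrd2 (0.47, adjusted p = 0.0183). Without Aged 33, where 12.8% of all genes were called, none of these was called and Prdx4 was called as lower (log2 fold change -0.63, edgeR adjusted p = 0.0217), while Prdx1 had a log2 fold change of 0.65 (edgeR adjusted p = 0.0652), Prdx3 of 0.59 (adjusted p = 0.0699) and Prdx6 of 0.54 (adjusted p = 0.144). Without Aged 31 (11.7% of all genes called), Prdx1 and Txn2 were called (edgeR adjusted p = 0.0463 and 0.0127), and Prdx3 and Prdx6 were not (0.0613 and 0.112). No member was called without Control 31, 32 or 34, where 10.6%, 7.18% and 6.88% of all genes were called, and Prdx3 alone was called without Control 33 (10.2%). With each of these Control ovaries left out, 3 members passed 1.5-fold and an unadjusted p under 0.05. That rule was passed by 18.2% of all genes with all 10 ovaries, and its share was not counted in these fits. Prdx1 and Prdx3 were also called without Aged+CF 30, 32 or 34, where 11.9%, 14% and 12.6% of all genes were called. Those ovaries are in neither group of this comparison and enter only the scaling and the shared estimate of the spread. Over all 10 fits, with these included, Prdx1 and Prdx3 were each called in 5 and Prdx6 in 1.

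**Figure D3:**
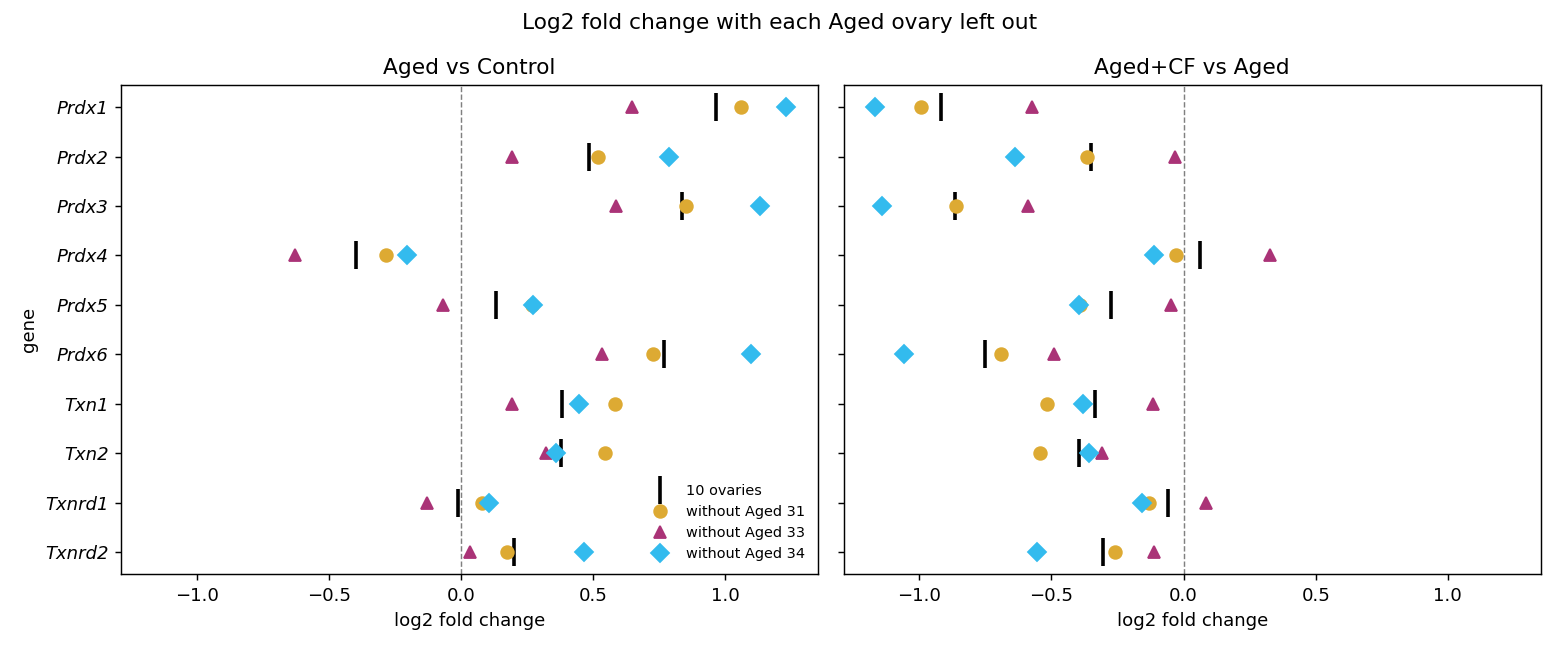
Log2 fold change of each gene from all 10 ovaries (black bars) and with each Aged ovary left out (symbols), in Aged vs Control (left) and Aged+CF vs Aged (right). Prdx1, Prdx3 and Prdx6 keep their side of 0 in every fit shown, from 0.54 to 1.23 in Aged vs Control, and are farthest from 0 without Aged 34 and nearest without Aged 33.

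In Aged+CF ovaries, 9 of the 10 genes had a lower mean than in Aged, and none was called. With edgeR, 1 of all 18956 genes was called in this comparison (0.00528%). By the unadjusted p under 0.05, 4 of the 10 genes passed, all lower in Aged+CF, where 16.3% of all genes passed and 8.27% were lower: Prdx1, Prdx3, Prdx6 and Txn2. The peroxiredoxins among them, 3 genes, also had a fold change of at least 1.5, as did 7.96% of all genes (4.05% as lower). The median log2 fold change of the 10 genes was -0.34, against -0.02 over all genes. Because this comparison and Aged vs Control share the Aged ovaries, a high value in Aged moves a gene in opposite directions in them.

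Prdx1 stood at 302.5, 502 and 433 CPM in Aged+CF 30, 32 and 34, below the 512 to 1115 CPM of the Aged ovaries, with Aged+CF 32 close to Aged 34. The log2 fold change was -0.92 (SE 0.27, unadjusted p = 0.00642, edgeR adjusted p = 0.181). Prdx3 stood at 164, 168 and 169.8 CPM in Aged+CF, a narrow range that lay below all Aged ovaries. Its log2 fold change was -0.87 (SE 0.23, unadjusted p = 0.00381, edgeR adjusted p = 0.169).

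Prdx6 stood at 137, 124 and 125 CPM in Aged+CF, all slightly above Aged 34 and far below the other Aged ovaries. The log2 fold change was -0.75 (SE 0.25, unadjusted p = 0.013, edgeR adjusted p = 0.211). Txn2 stood at 49.6, 48.8 and 46.0 CPM in Aged+CF, below all Aged ovaries, a log2 fold change of -0.40 (SE 0.13, unadjusted p = 0.0112, edgeR adjusted p = 0.205). Prdx1, Prdx3 and Txn2 were the 3 genes whose Aged+CF ovaries all lay below the Aged ovaries, as did 8.39% of all genes tested.

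The other peroxiredoxins had smaller differences. Prdx2 stood at 311, 337 and 317 CPM in Aged+CF (log2 fold change -0.35, SE 0.24, edgeR adjusted p = 0.483), between Aged 34 and the other Aged ovaries. Prdx4 stood at 40.9, 45.0 and 49.5 CPM (log2 fold change 0.06, SE 0.19, edgeR adjusted p = 0.894) and was the only one of the 10 with a higher mean than in Aged. Prdx5 stood at 56.0, 69.5 and 67.0 CPM (log2 fold change -0.27, SE 0.20, edgeR adjusted p = 0.517), and its groups overlapped.

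Txn1 stood at 138, 137 and 157 CPM in Aged+CF, within the Aged range (log2 fold change -0.34, SE 0.20, edgeR adjusted p = 0.417). Txnrd1 stood at 137, 143 and 141 CPM and had a log2 fold change of -0.06 with a 95% confidence interval from -0.32 to 0.20 (edgeR adjusted p = 0.83). Txnrd2 stood at 23.7, 20.4 and 23.5 CPM (log2 fold change -0.30, SE 0.20, edgeR adjusted p = 0.473), between Aged 34 and the other Aged ovaries. Of the 10 genes, Txnrd1 had the narrowest span of levels over the 10 ovaries, 0.43 on the log2 scale, and Prdx1 the widest, 1.88.

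This comparison also turned on Aged 34. Without it, 5 of the 10 genes were called lower in Aged+CF, where 3.44% of all genes were called: Prdx1 (log2 fold change -1.17, edgeR adjusted p = 0.0353), Prdx2 (-0.64, adjusted p = 0.0428), Prdx3 (-1.14, adjusted p = 0.0111), Prdx6 (-1.06, adjusted p = 0.0105) and Txnrd2 (-0.55, adjusted p = 0.0428). Those values rest on Aged 31 and 33 alone. With any other ovary left out, no member was called.

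**Figure D4:**
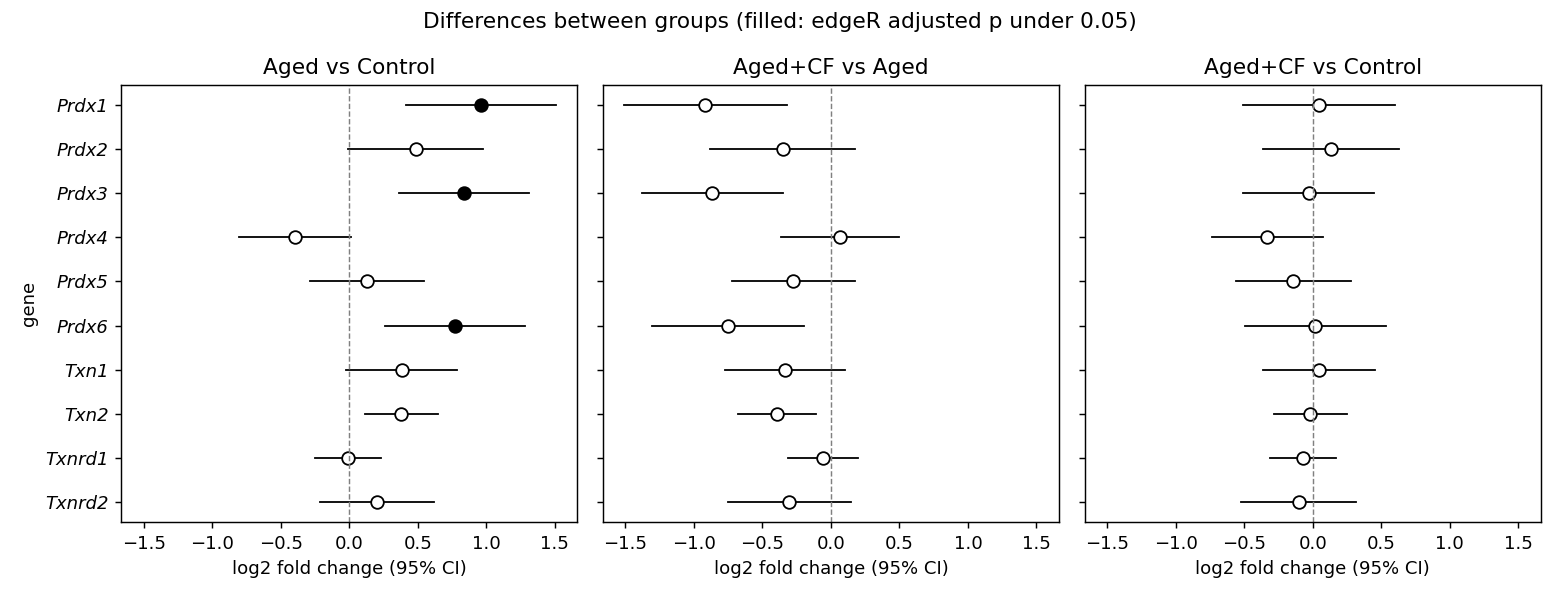
Log2 fold change with 95% confidence interval of each gene in the 3 comparisons, filled where the edgeR adjusted p was under 0.05. Prdx1, Prdx3 and Prdx6 are filled in Aged vs Control, and no gene is filled in the comparisons of Aged+CF.

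Between Aged+CF and Control, none of the 10 genes was called, where 0.179% of all genes were, and none had an unadjusted p under 0.05, where 14.3% of all genes did. The log2 fold changes ran from -0.33 (SE 0.18) for Prdx4 to 0.13 (SE 0.22) for Prdx2, with a median of -0.02 against -0.03 over all genes. The 95% confidence intervals limit how far the groups may differ: for Prdx1 from -0.51 to 0.60, for Prdx3 from -0.51 to 0.45 and for Prdx6 from -0.50 to 0.54. Of the 10 genes, Prdx2 alone had no overlap, with all Aged+CF ovaries (311 to 337 CPM) above the Control ovaries (282 to 309.7 CPM) by a small margin, as did 9.69% of all genes tested. Summed over the 6 peroxiredoxins, Aged+CF ovaries stood at 1011 to 1245 CPM, close to the 1035 to 1156 CPM of Control.

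Several cell type markers also differed between Aged and Control. Markers of luteal cells, the steroid-making cells of the corpus luteum, were called higher in Aged than in Control for 6 of 6 genes (Lhcgr, Ptgfr, Star, Cyp11a1, Hsd3b1 and Akr1c18), with a median log2 fold change of 1.83. Their summed level was 6314 to 11282 CPM in Control, 25646, 35425 and 14959 CPM in Aged 31, 33 and 34, and 13626 to 21403 CPM in Aged+CF. Among the Aged ovaries, the order of the luteal sum (33, 31, 34) was that of the peroxiredoxin sum, of Prdx1 and of Prdx3, but the orders differed in the other groups. Control 31 had the highest luteal sum of its group (11282 CPM) and the lowest peroxiredoxin sum (1035 CPM), and Aged+CF ran 32, 30, 34 by the luteal and 32, 34, 30 by the peroxiredoxin sum. Red blood cell markers stood at 418, 638 and 265 CPM in Aged 31, 33 and 34, against 71.8 to 112 CPM in Control and 109 to 260.1 CPM in Aged+CF, and 5 of 5 were called higher in Aged. Their order was 33, 31, 34 in Aged as well, and 34, 30, 32 in Aged+CF. Oocyte markers were called lower for 7 of 8 genes. No luteal or red blood cell marker was at 0 in any ovary, and the part of these cells in the peroxiredoxin values was not tested.

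In Aged vs Control, 4 of 5 plasma cell markers tested were called higher and 1 lower, 3 of 6 macrophage markers higher and 4 of 5 endothelial markers higher. None of the 6 granulosa cell, 4 oviduct epithelium or 5 fat cell markers tested was called. All 6 granulosa cell markers were still lower in Aged, with a median log2 fold change of -1.02 and 3 at an unadjusted edgeR p under 0.05. Of all genes, 31.6% passed that p. The granulosa cell sum was 2763 to 3233 CPM in Aged, against 3653 to 6355 CPM in Control and 1964 to 3570 CPM in Aged+CF. The endothelial sum was 504, 570.5 and 434 CPM in Aged 31, 33 and 34, in the order of the peroxiredoxin sum, and 296 to 372 CPM in Control. The macrophage sum was highest in Aged 34 (1063 CPM, against 479 and 509 CPM in Aged 31 and 33), the ovary with the lowest peroxiredoxin sum of the Aged group. Oviduct epithelium markers summed to 375 CPM in Control 33 and 318 CPM in Aged 34, against 13.54 to 44.95 CPM in the other ovaries. Fat cell markers summed to 116.7 CPM in Aged 34, against 21.95 and 20.25 CPM in Aged 31 and 33. In Control the fat cell sum ran from 16.96 to 119.9 CPM. No marker was called in Aged+CF vs Aged. By the unadjusted edgeR p under 0.05 (16.3% of all genes), 4 of 5 red blood cell and 3 of 5 endothelial markers were lower. Plasma cell markers had 4 lower and 1 higher, and granulosa cell markers 1 lower and 1 higher. Luteal, macrophage and oviduct epithelium markers had 1 lower each, and 2 of 8 oocyte markers were higher. In Aged+CF the endothelial sum was 387 to 410.5 CPM and the oocyte sum 106 to 169 CPM. The part of these cells in the values of the 10 genes was not tested either.

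**Figure D5:**
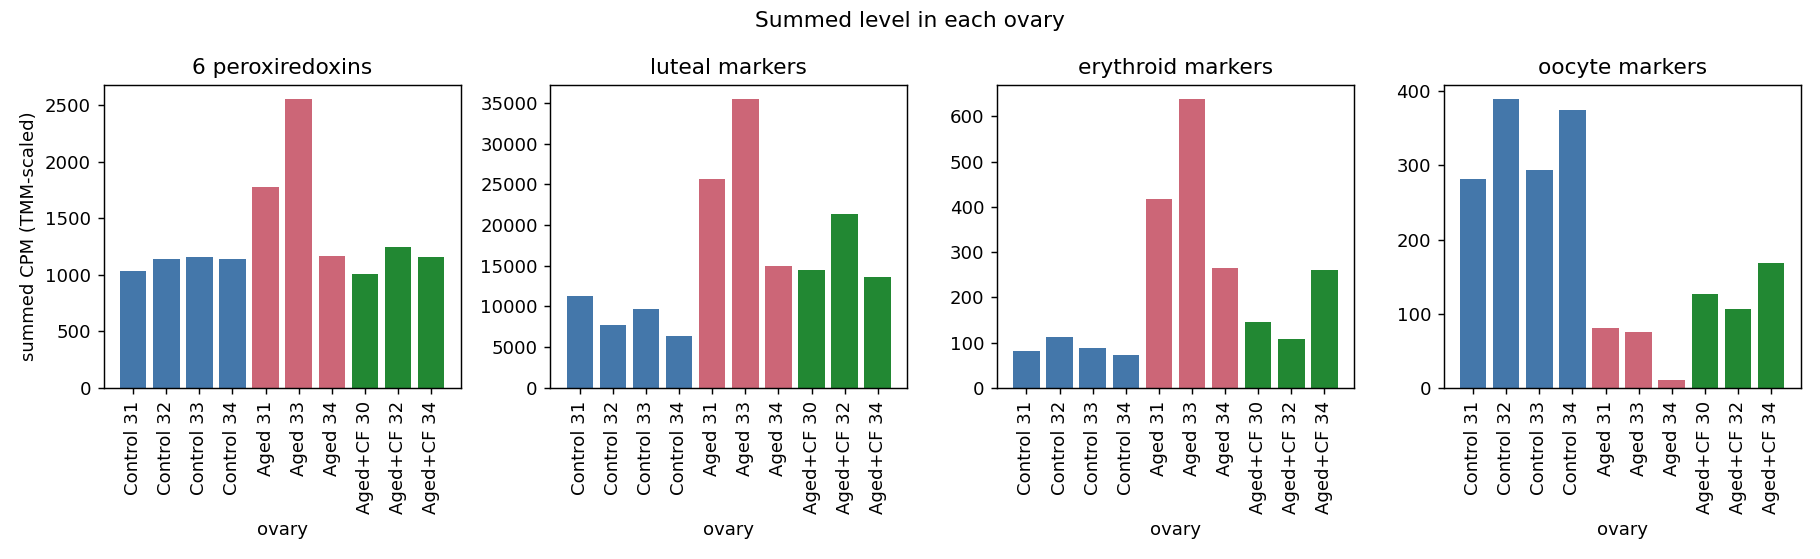
Summed TMM-scaled CPM in each of the 10 ovaries of the 6 peroxiredoxins, 6 luteal, 5 erythroid and 8 oocyte markers, as bars from 0. The peroxiredoxin, luteal and erythroid sums are all highest in Aged 33 and second in Aged 31, and the oocyte sum is lowest in Aged 34 (11.0 CPM).

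Around the 10 genes, 47 rows of other genes of the thioredoxin network were tested in 8 lists, with 2 rows for Nnt. In Aged vs Control, 6 rows were called higher and 5 lower, where 15.4% of all genes were called. Among genes that repair peroxiredoxins, Srxn1, which makes the sulfiredoxin that restores overoxidized 2-Cys peroxiredoxins, was higher in Aged, 76.9 ± 21.4 CPM (n = 3) against 36.3 ± 6.01 CPM in Control (n = 4), with a log2 fold change of 1.08 (SE 0.23, edgeR adjusted p = 0.0148) and no overlap. In Aged+CF it stood at 58.9 ± 15.7 CPM (n = 3). The 3 sestrin genes of the list, which take part in the response to oxidative stress, were not called, and the median of this list of 4 was 0.60.

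Among the regulators, Map3k5, which makes the kinase ASK1 that reduced thioredoxin holds inactive, was lower in Aged, 57.9 ± 14.2 CPM against 124 ± 7.46 CPM in Control (log2 fold change -1.10, SE 0.21, edgeR adjusted p = 0.0111). Txnip, whose product binds and inhibits thioredoxin, had 811 ± 242 CPM in Control, 1063 ± 141 CPM in Aged and 1385 ± 284 CPM in Aged+CF and was not called in any comparison. Of the 9 thioredoxin-like genes, Txndc17 was called higher (log2 fold change 0.47, SE 0.14, edgeR adjusted p = 0.0465), and it lost the call in 12 of 16 alternative fits.

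The enzymes that thioredoxin serves moved in both directions. Rrm1 and Rrm2, the subunits of ribonucleotide reductase that make DNA precursors in dividing cells, were lower in Aged, with log2 fold changes of -0.84 (SE 0.15, edgeR adjusted p = 0.00843) and -1.46 (SE 0.34, edgeR adjusted p = 0.0208). Rrm2b, the form of the small subunit used outside cell division, was higher by 0.40 (SE 0.11, edgeR adjusted p = 0.0388). Msrb1, a selenium-dependent methionine sulfoxide reductase, was higher by 0.52 (SE 0.14, edgeR adjusted p = 0.0372). The calls of Rrm2b and Msrb1 were lost in 11 and 12 of 16 alternative fits, that of Rrm2 in 4 and that of Rrm1 in 1.

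Of the 7 rows for genes that supply NADPH, 2 were called higher and 2 lower. Me1 and Idh1, which form NADPH in the cytosol, were higher in Aged: Me1 at 1833 ± 494 CPM against 744 ± 58.2 CPM in Control (log2 fold change 1.30, SE 0.23, edgeR adjusted p = 0.00901) and Idh1 at 1666 ± 587 CPM against 730 ± 185 CPM (log2 fold change 1.19, SE 0.27, edgeR adjusted p = 0.0182). The call of Idh1 was lost in 4 of 16 alternative fits and that of Me1 in 1. Idh2, which forms NADPH in mitochondria, and Nnt, listed for the same role, were lower. Their log2 fold changes were -0.71 (SE 0.14, edgeR adjusted p = 0.0125) and -0.90 (SE 0.18, edgeR adjusted p = 0.0125). Nnt is split over 2 identifiers in the table, and the value is that of the first, ENSMUSG00000116207. The other, ENSMUSG00000025453, was not called (log2 fold change -1.61, SE 0.54, edgeR adjusted p = 0.0718). C57BL/6J mice carry a deletion inside Nnt, and its protein was not measured, so its RNA level is not read as NADPH supply. In Aged+CF the first Nnt row was also lower than in Control, at 52.5 ± 12.9 CPM against 124 ± 18.5 CPM (log2 fold change -1.24, SE 0.18, edgeR adjusted p = 0.0326), the only one of the 47 rows called there. The call was lost in 8 of 16 alternative fits.

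No gene was called in Aged vs Control among the 6 of disulfide formation in the endoplasmic reticulum, the 5 glutaredoxins and glutathione reductase, or the 6 of selenocysteine insertion, which the thioredoxin reductases need. With an unadjusted edgeR p under 0.05, there were 1, 1 and 1 in these lists, where 31.6% of all genes passed. In Aged+CF vs Aged, none of the 47 rows was called, and 4 were higher and 1 lower by the unadjusted p. Of all genes, 8.06% were higher and 8.27% lower by that rule. The list medians in Aged vs Control ran from -0.29 (regulators) to 0.60 (peroxiredoxin repair).

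For each of the 3 called members, the most similar genes over the 10 ovaries were looked for among 11499 genes with a mean of at least 10 CPM, by the root mean square difference of centred log2 CPM. Nearest to Prdx1 were Cisd1 (0.174), Pgp (0.182) and Shtn1 (0.182). Nearest to Prdx3 were Shtn1 (0.099), Prdx6 (0.108) and Cisd3 (0.137). Nearest to Prdx6 were Ndufc2 (0.085), Ilvbl (0.094) and Tmem60 (0.107). Prdx3 and Prdx6 were also the closest pair among the 10 genes, and Prdx1 and Prdx4 the most distant (0.58). These differences describe the same libraries and carry no test.

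The promoters of the members were searched for the core of the antioxidant response element, the site through which NRF2 acts on many genes of this system, as TGACNNNGC on either strand. RefSeq windows (GRCm38.p6) from 250 bases before to 50 bases after a start were at hand for 9 of the 10 genes, 11 windows in all, with 3 for Txnrd1. No window of Prdx6 was searched. The letters were found in 2 of the 11 windows, that of Prdx1 and 1 of those of Txnrd1, and in 12.4% of all 32851 windows. TGACNNNGC reads on the opposite strand in both, so the capitals below are its reverse complement. Both matches are shown in capitals with the bases around them, all written in the direction of the gene (chr4:116685426-116685514 for Prdx1 and chr10:82859074-82859162 for Txnrd1, both + strand).
Prdx1: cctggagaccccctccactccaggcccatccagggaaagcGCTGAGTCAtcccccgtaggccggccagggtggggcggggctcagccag
Txnrd1: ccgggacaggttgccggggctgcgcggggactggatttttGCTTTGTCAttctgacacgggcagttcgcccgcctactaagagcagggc

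The match begins 133 bases before the start in Prdx1 and 92 bases before it in Txnrd1. That of Prdx1 overlaps a match to TGANTCA, the letters of an AP-1 site, which are present in 7.81% of all windows. In the windows of single genes, TGANTCA was looked for only within matches to the core. The window of Srxn1 also held the core, beginning 28 bases after the start, and it holds TGAGTCA before the start, outside that match. The windows of Prdx2, Prdx3, Prdx4, Prdx5, Txn1, Txn2 and Txnrd2 did not hold the core.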

How the data were processed

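Total RNA of 10 ovaries was sequenced, and reads were aligned with TopHat per the labels. The submitters' processing notes also name Cufflinks 2.1.1 and GRCm38.p4. The tool, annotation and strand setting used for counting are not given in the sources used here. The authors deposited unnormalized counts for each gene, and FPKM computed from the counts with a fixed length per gene and the library total. Counts entered edgeR 4.0 (R 4.3): filter on low counts by group, TMM, quasi-likelihood F test on all 10 ovaries with a mean per group, and Benjamini-Hochberg adjustment over 18956 genes. A gene was called at adjusted p under 0.05. P-values are two-sided and measure the spread between ovaries, which the labels do not tie to named animals. CPM is TMM-scaled.

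The fit was tested on simulated data, with larger fold changes than those of the members and the same spread in every group. It therefore does not measure how well changes of the members' size are found in the more variable Aged group. No pair of libraries within a group agreed within sampling noise. Alternatives were no filter, DESeq2 size factors, DESeq2 1.42, limma 3.58 on log2(FPKM + 1), only 2 groups, a replicate block, and each ovary left out.

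Members and lists were chosen with earlier results of these data known. Besides the members, the text names genes of the lists called in any comparison with a mean of at least 1 CPM (at most 3 a direction), and the 3 genes most like each called member. Txnip and the overlapping genes were named outside this rule after their values were seen. Positions are from GENCODE M21, which held 55141 of the 55487 identifiers.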

Additional observations from a re-analysis of the deposited data

Results flagged for a closer look

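In the Control group, the Prdx1 level of ovary 31 was 357 CPM, while the other 3 Control ovaries stood at 409 to 417 CPM. The gap between it and the nearest ovary was 0.864 of the range of the group, above the Dixon limit for 4 samples. Chance flags about 1 in 20 such groups, and the 10 members were tested in Control alone, since the other groups have 3 ovaries. Without Control 31, no member was called in Aged vs Control, where 10.6% of all genes were. At 1.5-fold and an unadjusted edgeR p under 0.05, 3 members passed, and the share of all genes was not counted in that fit.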

How the results depend on the processing

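Of the 3 members called in Aged vs Control, Prdx1 was called in 10, Prdx3 in 8 and Prdx6 in 3 of 16 alternatives, and all 3 kept their direction in all 16. The count of called members was 2 with no filter (Prdx1, Prdx3; 5.49% of all genes called), 4 with DESeq2 size factors (15.8%) and 4 with the DESeq2 Wald test (20%), both adding Txn2, 2 with limma on log2(FPKM + 1) (Prdx1, Prdx4; 17.5%), and 1 with only the compared groups in the fit (Prdx1; 9.38%). With an ovary left out it ran from 0 to 5, and from 0 to 5 in Aged+CF vs Aged. There the DESeq2 Wald test called 2 members (Prdx1, Prdx3) and 684 of all genes (3.79%, against 0.00528% with edgeR), and the other settings with all ovaries called 0. The count at 1.5-fold and unadjusted p in Aged vs Control was 2 with limma, 3 in the other settings with all ovaries, and 3 to 4 with an ovary left out. In Aged+CF vs Aged it ran from 1 (without Aged 33) to 4 with an ovary left out. No alternative called a member in Aged+CF vs Control.

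With the replicate number as a block, the count of called members in Aged vs Control was 0, where 80 of all genes were called (0.422%). At 1.5-fold and unadjusted p, 3 members passed in Aged vs Control under the block, while Aged+CF vs Aged had 0. The share of all genes at this rule was not counted under the block. The numbers were taken as names, since the deviations of same-numbered Aged and Control ovaries from their group means had correlations of 0.138 (31), -0.185 (33) and 0.0696 (34), and not every ovary correlated best with its own number. Only 1 number is shared in Aged+CF vs Aged. The block reversed Txnrd1 in Aged+CF vs Aged (0.011) and Prdx3 (0.196) and Txnrd2 (0.017) in Aged+CF vs Control.

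The other reversals were of log2 fold changes near 0, and none was called. In Aged vs Control they were Txnrd1 (0.018 with DESeq2 size factors, 0.02 with the Wald test, and -0.128 to 0.105 with an ovary left out) and Prdx5 (-0.008 with limma, and -0.068 to 0.273 with an ovary left out). In Aged+CF vs Aged they were Txnrd1 (0.043 with limma, and -0.158 to 0.085 with an ovary left out) and Prdx4 (-0.11 to 0.326 with an ovary left out). In Aged+CF vs Control they were Txn2 (0.006 with DESeq2 size factors, 0.006 with the Wald test, 0.005 with only the compared groups), and Prdx1 (-0.018) and Prdx6 (-0.015) with limma. With an ovary left out in that comparison, Prdx1 ran from -0.119 to 0.227, Prdx3 from -0.074 to 0.037, Prdx6 from -0.028 to 0.058, Txn1 from -0.06 to 0.107 and Txn2 from -0.043 to 0.03. The cause of these changes was not tested. Every member had at least 333 counts in each ovary.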
